A study of Homo sapiens with 12 samples.

Results

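The globin genes examined here are 10 named genes of the alpha-globin and beta-globin clusters. They were chosen by name, with earlier results of these data known. They are 10 of the 60658 rows of the deposited expression table, and HBM, HBAP1 and HBZP1, which also lie in the alpha-like cluster, are described with the neighbouring genes. The 6 beta-like genes, on chromosome 11, are HBE1, HBG2, HBG1, HBBP1, HBD and HBB, and the 4 alpha-like genes, on chromosome 16, are HBZ, HBA2, HBA1 and HBQ1. Of the 10, 9 passed the filter on low values and were tested. The tenth, HBB, did not pass it.

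RNA sequencing was done on 12 libraries of K-562, an established human erythroleukemia cell line, in 4 groups of 3. The control group (siRNA_Control) was a stable line labelled 3xTY1 that received a non-targeting siRNA. The knockdown group (MYB_KnockDown) was the 3xTY1 line given si2992, an siRNA against MYB, the transcription factor of hematopoietic progenitors. The wild-type rescue group (MYB-WT_Rescue) was a separate stable line labelled 3xTY-hcM, also given si2992. The D152V rescue group (D152V_Rescue) was another stable line labelled 3xTY-D152V, again given si2992, where D152V names a form of MYB with a substituted amino acid. All lines were selected with G418, and RNA was taken 24 hours after transfection. Each rescue is 1 line, and the labels do not say whether a line is 1 clone or a pool, so in any comparison with a rescue group the expressed MYB and the line itself cannot be told apart. The design text calls the 3 replicates of a group separate experiments.

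Hemoglobin is built from alpha-like and beta-like globin chains. In each cluster the genes lie along the chromosome in the order in which they are used during development, the embryonic genes first (HBE1 for epsilon, HBZ for zeta), then the fetal genes (HBG1 and HBG2 for gamma, alongside HBA1 and HBA2 for alpha) and, in the beta-like cluster, the adult genes (HBD for delta, HBB for beta). The beta-like genes share a distal enhancer, the locus control region, and are turned on and off in sequence by activators such as GATA1 and KLF1 and repressors such as BCL11A and ZBTB7A. K-562 cells are known for making embryonic and fetal globins with little or no adult beta globin.

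MYB itself, the target of the siRNA, stood at 120 ± 14.2 FPKM (fragments scaled to transcript length and to the size of the library; mean ± SD, n = 3) in the control group and at 30.2 ± 3.58 in the knockdown group. It stood at 124 ± 8.87 in the wild-type rescue and at 91.0 ± 8.11 in the D152V rescue, values that add the cell's own transcript and that of the construct as far as the quantification counted it. One library stood apart. Knockdown replicate 1 had an FPKM total of 1215578 against 672616 to 798362 in the other 11 libraries, and ribosomal protein genes, which are short, held 22.0% of it against 9.56% to 15.9% elsewhere. Its Pearson correlation with knockdown replicates 2 and 3 was 0.930 and 0.929 across tested genes (genes are not independent replicates), while every other pair within a group lay at 0.983 or above. Globin transcripts are short as well, with canonical transcripts of 439 to 798 bases, so values against the knockdown group are given with and without this library for the genes and counts the results turn on. The erythroid character of the cells was checked on 19 markers fixed for it: all 19 were tested, none was below 1 FPKM in all 12 libraries, and the most abundant was RHAG. Of these markers EPB42 had group means of 0.562 to 0.970 FPKM. SLC4A1 had 0.356 to 0.657 FPKM outside the wild-type rescue, where it had 2.04. Among markers of other cell types, PF4 and SELP (megakaryocytes), ELANE (neutrophil precursors) and CD8A and MS4A1 (lymphocytes) were at 0 in all 12 libraries. Others of those lists were detected, with group means of 19.6 to 90.8 FPKM for CD3D and 10.6 to 23.3 for CD33. LYZ had 4.195 to 20.9 FPKM and EPCAM, an epithelial marker, 34.2 to 70.6.

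HBE1 encodes the embryonic epsilon chain (Ensembl ENSG00000213931, GRCh38.p14 chr11:5268345-5269945) and passed the test in 5 of the 6 comparisons between groups. In control replicates 1, 2 and 3 it stood at 899.5, 509.0 and 1220 FPKM. In the knockdown libraries it stood at 3300, 814.8 and 2031 FPKM. With wild-type MYB it stood at 47.0, 43.1 and 72.6 FPKM. The D152V rescue libraries lay between the wild-type rescue and the control, at 151.3, 168.3 and 428.0 FPKM. Control and knockdown overlapped, because knockdown replicate 2 lay below control replicates 1 and 3, though above control replicate 2. The 2 rescue groups overlapped neither each other nor the control or knockdown group. By rank among all rows of the table, HBE1 was between 36th and 169th in the 6 control and knockdown libraries, between 191st and 599th in the D152V rescue and between 1570th and 2685th in the wild-type rescue.

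**Figure D1:**
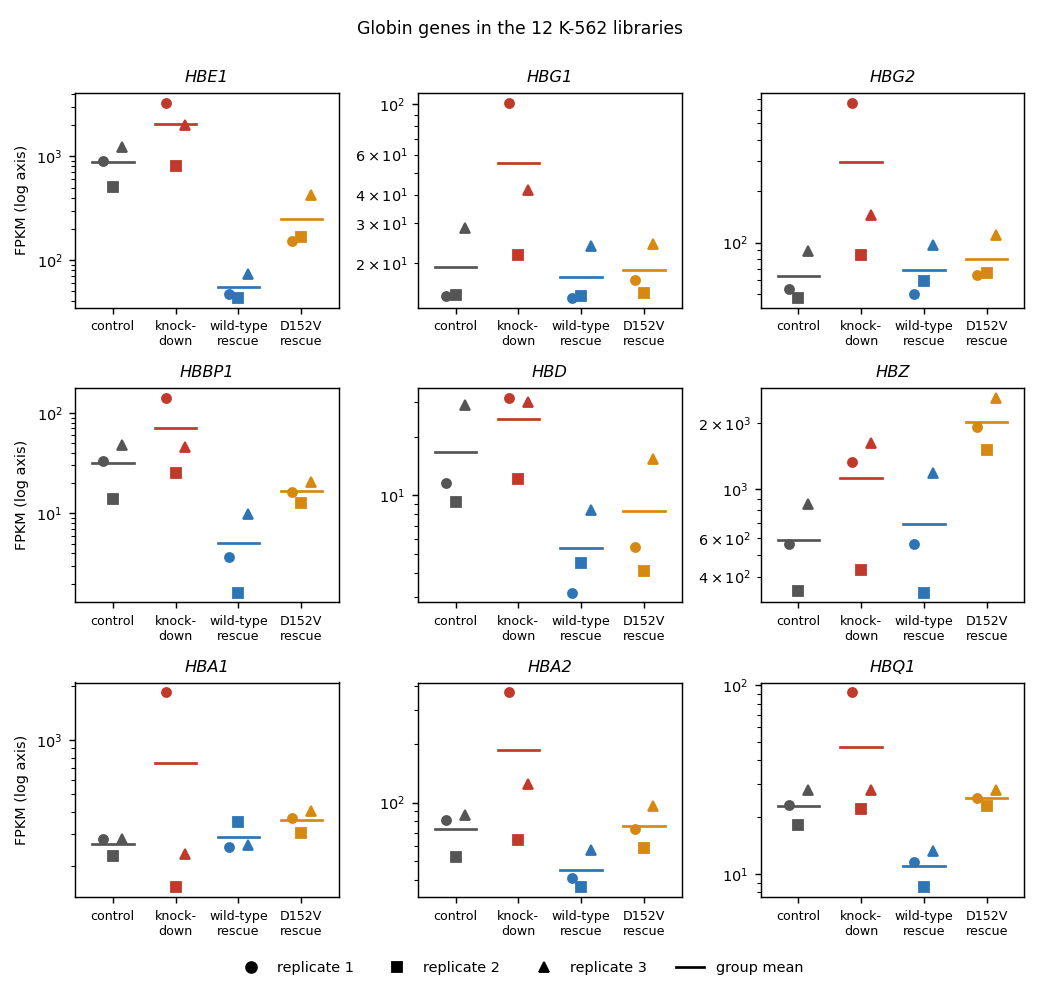
FPKM of the 9 tested globin genes (log axes, each panel with its own range) in the 4 groups, with 1 symbol per library by replicate number and a line at the group mean. HBE1 is lowest in the 3 wild-type rescue libraries (43.1 to 72.6 FPKM), HBZ is highest in the 3 D152V rescue libraries on average (1506 to 2605 FPKM), and knockdown replicate 1 lies far above the other libraries for HBG2 and HBA1.

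The mean of HBE1 in the wild-type rescue was 54.2 ± 16.03 FPKM, or 6.19% of the control mean, and in the D152V rescue 249.2 ± 155 FPKM, or 28.4%. On the log2(FPKM + 1) scale, HBE1 was lower in the wild-type rescue than in the control by -3.94 (SE 0.53, limma adjusted p = 0.000998) and lower than in the knockdown by -5.03 (SE 0.53, limma adjusted p = 9.90e-05). Each passed in 23 of 23 alternative settings, and without knockdown replicate 1 the second was -4.58 (adjusted p = 5.34e-05). HBE1 was also lower in the D152V rescue than in the knockdown by -2.98 (SE 0.53, limma adjusted p = 0.00353), again in 23 of 23 settings and by -2.53 without knockdown replicate 1 (adjusted p = 0.00336). These 2 comparisons share the knockdown libraries. In bulk RNA, fewer cells that make a globin and less of its RNA per cell cannot be told apart.

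Between the 2 rescue lines, HBE1 was higher with D152V by 2.05 (SE 0.53, limma adjusted p = 0.0263), a 4.60-fold difference in means, and all 3 D152V libraries lay above all 3 wild-type libraries. MYB itself stood at 91.0 against 124 FPKM in these lines (-0.44, limma adjusted p = 0.0494; 5 of 23 settings), and its part in the HBE1 difference was not tested. The HBE1 call held in 18 of 23 settings (adjusted p from 0.00196 to 0.112). It was lost with no filter on low values (adjusted p = 0.0614) and without wild-type rescue replicate 1 (0.0902) or 2 (0.109) or D152V rescue replicate 2 (0.0524) or 3 (0.112). With the replicate number as a block the adjusted p was 0.00751. The fall of HBE1 in the D152V rescue against the control was -1.89 (SE 0.53, limma adjusted p = 0.0458) and held in 12 of 23 settings, with adjusted p from 0.000728 to 0.166. It did not pass without control replicate 1 (adjusted p = 0.139), 2 (0.0512) or 3 (0.166), without D152V rescue replicate 1 (0.165) or 2 (0.162), or without the third knockdown library (0.0551) or any 1 wild-type rescue library (0.0585 to 0.0679).

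HBG1 and HBG2 encode the 2 fetal gamma chains from near-identical neighbouring genes (ENSG00000213934, chr11:5248269-5249857, and ENSG00000196565, chr11:5253188-5254781, GRCh38.p14). Reads can be divided between the copies in an arbitrary way, so their sum is given first. Summed HBG1 and HBG2 stood at 67.7, 61.9 and 117.7 FPKM in control replicates 1, 2 and 3 and at 763.0, 105.8 and 187.7 FPKM in the knockdown libraries. The sum stood at 64.0, 74.1 and 120.3 FPKM in the wild-type rescue and at 81.6, 81.4 and 134.8 FPKM in the D152V rescue. The ranges of control, wild-type rescue, D152V rescue and knockdown overlapped. Knockdown replicate 1 was the highest library by a wide margin.

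No comparison of the summed gamma genes passed the test. The largest differences were 1.64 for the knockdown against the control (SE 0.58, limma adjusted p = 0.0845) and -1.57 for the wild-type rescue against the knockdown (SE 0.58, limma adjusted p = 0.0524). Without knockdown replicate 1 they were 0.83 (adjusted p = 0.122) and -0.76 (adjusted p = 0.101), and without knockdown replicate 2 they were 2.25 (adjusted p = 0.0245) and -2.18 (adjusted p = 0.00963). Against the control the sum differed by 0.07 in the wild-type rescue and 0.28 in the D152V rescue (SE 0.58 for both, limma adjusted p = 0.966 and 0.860). HBG2 held most of the sum, with group means of 63.3, 297, 68.8 and 80.7 FPKM in control, knockdown, wild-type rescue and D152V rescue, where HBG1 had 19.1, 55.1, 17.4 and 18.6. HBG1 alone was lower in the wild-type rescue than in the knockdown by -1.38 (SE 0.47, limma adjusted p = 0.0383), with overlapping groups. That call held in 14 of 23 settings and was lost without knockdown replicate 1 (-0.81, adjusted p = 0.0839) or 3 (adjusted p = 0.0540), without wild-type rescue replicate 1 (0.109) or 2 (0.114) and without D152V rescue replicate 1 (0.0524), and in 4 settings that leave out no library in turn.

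HBBP1 is a transcribed pseudogene between the gamma and delta genes (ENSG00000229988, chr11:5241954-5243592, GRCh38.p14). It stood at 33.4, 13.8 and 47.5 FPKM in control replicates 1, 2 and 3 and at 142.3, 25.0 and 46.2 FPKM in the knockdown libraries. The wild-type rescue libraries stood at 3.68, 1.63 and 9.90 FPKM, and in the D152V rescue at 16.5, 12.6 and 20.8 FPKM. All 3 wild-type rescue libraries lay below every other library, while the D152V rescue overlapped the control. HBBP1 was lower in the wild-type rescue than in the knockdown by -3.45 (SE 0.65, limma adjusted p = 0.00249; 23 of 23 settings, -2.77 without knockdown replicate 1) and lower than in the control by -2.51 (SE 0.65, limma adjusted p = 0.0329). The second call held in 17 of 23 settings and was lost with no filter (adjusted p = 0.0764), without control replicate 1 (0.111) or 3 (0.132), without wild-type rescue replicate 1 (0.0985) or 2 (0.146) and without D152V rescue replicate 1 (0.0512). The D152V rescue exceeded the wild-type rescue by 1.76 (SE 0.65, limma adjusted p = 0.112), which passed with the replicate block (adjusted p = 0.0334) and without knockdown replicate 1 (adjusted p = 0.0223).

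HBD encodes the delta chain of the minor adult hemoglobin (ENSG00000223609, chr11:5232838-5234483, GRCh38.p14). It stood at 11.6, 9.24 and 29.1 FPKM in control replicates 1, 2 and 3 and at 31.8, 12.1 and 30.2 FPKM in the knockdown libraries. It stood at 3.18, 4.52 and 8.45 FPKM in the wild-type rescue and at 5.42, 4.08 and 15.5 FPKM in the D152V rescue. The wild-type rescue libraries were all below the control and knockdown libraries, and the D152V rescue overlapped both the control and the knockdown. HBD was lower in the wild-type rescue than in the knockdown by -1.98 (SE 0.54, limma adjusted p = 0.0154; 21 of 23 settings, -1.75 without knockdown replicate 1), a call lost without wild-type rescue replicate 1 (adjusted p = 0.0603) or 2 (0.0532). Against the control the difference was -1.38 (SE 0.54, limma adjusted p = 0.144).

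The 250 bases before the start of HBD are shown because it is the 1 member for which a promoter sequence was found. They are from RefSeq on GRCh38.p14 (chr11:5234484-5234733, minus strand, written 5′ to 3′ along the gene). Capitals mark a CCAAT match, a GATAA match on the opposite strand, which reads TTATC here, and an ATAAA match near the start of transcription.
HBD: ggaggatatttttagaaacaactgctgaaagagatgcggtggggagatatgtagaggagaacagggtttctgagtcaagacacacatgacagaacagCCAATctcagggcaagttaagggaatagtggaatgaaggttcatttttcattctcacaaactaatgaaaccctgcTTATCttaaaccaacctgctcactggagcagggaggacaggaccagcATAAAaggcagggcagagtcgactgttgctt
Positions are counted backwards from the first base of the gene. CCAAT begins at -153, the GATAA match at -78 and ATAAA at -31, and none of these overlaps another. Among 35116 promoter windows of the same length, 32.0% hold CCAAT, 20.4% GATAA and 32.7% ATAAA on either strand. CACCC, the core of sites bound by KLF1, has 0 matches in this window and is found in 54.7% of all windows. AACNG, the core of sites bound by MYB, has 4 matches here, and 70.6% of all windows hold at least 1. The share of windows with 4 or more is not given. These matches describe letters in the window and not bound sites.

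HBB, the adult beta gene (ENSG00000244734, chr11:5225464-5227071, GRCh38.p14), was listed at 0 in 6 of the 12 libraries and reached at most 0.604 FPKM, in D152V rescue replicate 3. It was not tested and no direction is given for it.

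HBZ, the embryonic zeta chain of the alpha-like cluster (ENSG00000130656, chr16:152644-154503, GRCh38.p14), stood at 563.5, 343.4 and 854.5 FPKM in control replicates 1, 2 and 3 and at 1330, 427.5 and 1627 FPKM in the knockdown libraries. It stood at 564.3, 338.5 and 1187 FPKM in the wild-type rescue and at 1923, 1506 and 2605 FPKM in the D152V rescue. Control, knockdown and wild-type rescue overlapped. The D152V rescue libraries lay above all control and all wild-type rescue libraries and overlapped the knockdown group.

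HBZ in the D152V rescue was at 343% of the control mean, and it ranked between 21st and 45th among all rows of the table in those 3 libraries. The difference was 1.84 against the control (SE 0.55, limma adjusted p = 0.0625) and 1.68 against the wild-type rescue (SE 0.55, limma adjusted p = 0.0746), so neither passed. Over the alternative settings the first passed in 9 of 23 and the second in 7 of 23, among them the fits without knockdown replicate 1 (adjusted p = 0.0248 and 0.0326). With the replicate number as a block they had adjusted p of 0.00220 and 0.00242. Against the knockdown the D152V rescue differed by 1.008 (SE 0.55, limma adjusted p = 0.19, and 0.0208 with the block). Only the 2 rescue lines met the criterion for pairing by number. HBZ in the wild-type rescue differed from the control by 0.15 (SE 0.55, limma adjusted p = 0.921), where HBE1 had fallen to 6.19% of its control mean.

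HBA2 and HBA1 encode identical alpha chains of fetal and adult hemoglobin (ENSG00000188536, chr16:172876-173710, and ENSG00000206172, chr16:176680-177522, GRCh38.p14), and their reads can be exchanged between the copies as for the gamma genes. Summed HBA1 and HBA2 stood at 363.2, 278.8 and 368.3 FPKM in control replicates 1, 2 and 3 and at 2219, 215.7 and 355.5 FPKM in the knockdown libraries. The sum stood at 294.2, 385.9 and 317.7 FPKM in the wild-type rescue and at 441.5, 360.5 and 500.9 FPKM in the D152V rescue. Apart from knockdown replicate 1, the 11 libraries lay within 215.7 to 500.9 FPKM and all 4 groups overlapped. No comparison of the sum passed the test (limma adjusted p from 0.366 to 0.993). When knockdown replicate 1 was left out the D152V rescue exceeded the knockdown by 0.63 (adjusted p = 0.0394), where the difference with it was -0.36.

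Taken singly, HBA2 was lower in the wild-type rescue than in the knockdown by -1.69 (SE 0.49, limma adjusted p = 0.0206), with group means of 44.9 ± 10.9 and 186 ± 162 FPKM that did not overlap library by library. The call held in 19 of 23 settings, without knockdown replicate 1 among them (-1.01, adjusted p = 0.0189), and was lost without wild-type rescue replicate 1 (0.0597) or 2 (0.0734), with no filter (0.0550) and with only the 6 libraries compared (0.0916). In that comparison HBA1 differed by less than its error (-0.50, SE 0.68, limma adjusted p = 0.586) and turned to 0.60 without knockdown replicate 1 (adjusted p = 0.0265). HBA1 in the D152V rescue against the knockdown likewise went from -0.17 (limma adjusted p = 0.864) to 0.93 without that library (adjusted p = 0.00474). Because the copies share reads, these opposite values for HBA1 and HBA2 are uncertain.

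HBQ1, the theta globin gene at the end of the alpha-like cluster (ENSG00000086506, chr16:180459-181179, GRCh38.p14), stood at 23.1, 18.2 and 27.8 FPKM in control replicates 1, 2 and 3 and at 91.9, 22.1 and 27.8 FPKM in the knockdown libraries. It stood at 11.5, 8.48 and 13.2 FPKM in the wild-type rescue and at 25.3, 22.9 and 27.8 FPKM in the D152V rescue. Every wild-type rescue library lay below every other library, and the other 3 groups overlapped. HBQ1 was lower in the wild-type rescue than in the knockdown by -1.73 (SE 0.41, limma adjusted p = 0.00779; 22 of 23 settings, not with only the 6 libraries compared, adjusted p = 0.0617; -1.12 without knockdown replicate 1). Against the control it was lower by -0.99 (SE 0.41, limma adjusted p = 0.164; 0.00163 without knockdown replicate 1), and the D152V rescue exceeded the wild-type rescue by 1.141 (SE 0.41, limma adjusted p = 0.102; 0.000540 without knockdown replicate 1).

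**Figure D2:**
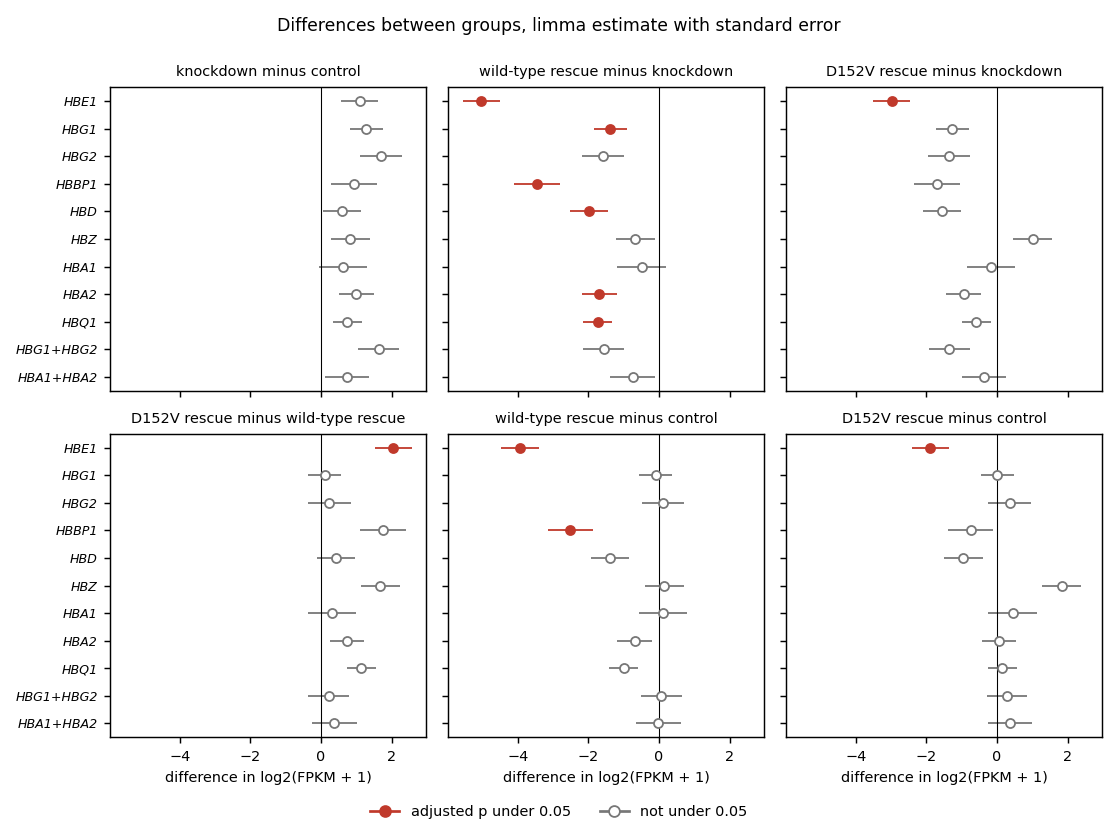
Differences in log2(FPKM + 1) between groups for the 9 tested globin genes and the 2 sums of near-identical copies, 1 panel per comparison, with bars of 1 standard error from limma. Filled red points have an adjusted p under 0.05: HBE1 passes in 5 of the 6 panels and none passes in the knockdown minus control panel.

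Counted over the 9 tested globin genes, none passed as higher or lower after MYB knockdown (limma, adjusted p under 0.05), where 3.94% of all 13393 tested genes were higher and 7.38% lower. At an unadjusted p under 0.05, 2 were higher, HBG1 and HBG2, and 0 lower. All 9 differences were positive (HBA1 turned to -0.45 with library weights and to -0.49 without knockdown replicate 1), with a median of 0.94 against -0.03 over all tested genes. Without knockdown replicate 1 the median was 0.37 and the count was again 0 in each direction (7.26% and 13% of genes). Of the genes called after knockdown 34.8% were higher; quantile normalization gave 45.5%, removal of the length trend 45.9% and median-ratio scaling 46.9%. The 3 knockdown libraries differed relative to the control mean. HBE1 was 3.77-fold in replicate 1, 0.930-fold in replicate 2 and 2.32-fold in replicate 3, and summed HBG1 and HBG2 were 9.26-fold, 1.28-fold and 2.28-fold. Control replicate 2 was itself the lowest control library for HBE1, at 509.0 FPKM against 814.8 in knockdown replicate 2. Knockdown libraries lay above the same-numbered control libraries, except for HBBP1 in replicate 3 and HBA1 in replicates 2 and 3. A pairing of these 2 groups by number was not established. Without knockdown replicate 2, 4 genes passed as higher, HBE1, HBG1, HBG2 and HBA2 (adjusted p = 0.0394, 0.0235, 0.0248 and 0.0304), where 8.21% of all genes tested in that fit were higher and 11.2% lower.

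**Figure D3:**
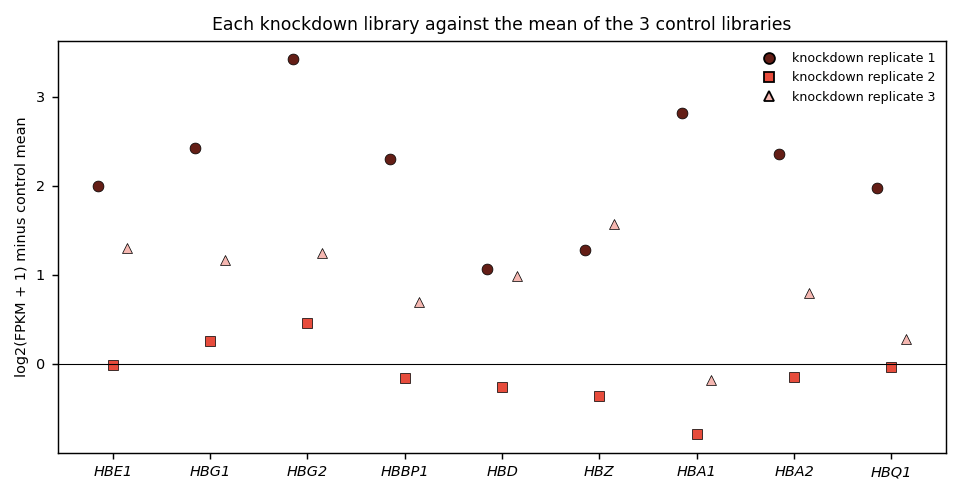
Each knockdown library's log2(FPKM + 1) minus the mean of the 3 control libraries for the 9 tested globin genes, 1 symbol per library. Replicate 1 is above the control mean for all 9 genes, replicate 3 for all but HBA1, and replicate 2 lies at or below it for all but HBG1 and HBG2.

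In the wild-type rescue against the knockdown, 6 of the 9 were lower (HBE1, HBBP1, HBQ1, HBD, HBA2 and HBG1) where 16.9% of all tested genes were lower, and 0 were higher where 20.6% of all genes were, also at an unadjusted p under 0.05. The median difference was -1.69 against 0.03 over all genes. Without knockdown replicate 1, 5 were lower, with HBG1 no longer passing, and HBA1 was higher, against 19.9% and 25.5% of genes. In the D152V rescue against the knockdown, 1 of the 9 was lower (HBE1; 12% of all genes) and 0 higher (13% of all genes), with a median of -1.27 against 0.02. Without knockdown replicate 1, HBE1 was lower and HBA1 higher (15.9% and 16.8% of genes).

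Between the 2 rescue lines, 1 of the 9 was higher with D152V (HBE1; 5.96% of all genes) and 0 lower (6.19%), with a median of 0.74 against -0.03. Same-numbered libraries of these 2 groups deviated together only weakly (r = 0.153 to 0.233), and a pairing by number is inferred from these same data. With the replicate number as a block over all 4 groups, 3 of the 9 were higher, HBE1, HBZ and HBBP1. Under that block 6.93% of all genes were higher and 7.04% lower. Without knockdown replicate 1, which enters the shared estimate of spread, 4 of the 9 were higher (HBE1, HBZ, HBBP1 and HBQ1; 13.7% of genes higher, 18% lower). Against the control, 2 of the 9 were lower in the wild-type rescue (HBE1 and HBBP1; 4.58% of all genes) and 0 higher (5.04%), and in the D152V rescue 1 was lower (HBE1; 4.94%) and 0 higher (4.61%). When it was left out the first of these comparisons had 3 lower (HBE1, HBBP1 and HBQ1; 15.9% of genes lower, 13.9% higher) and the second 1 lower and 1 higher (HBE1 and HBZ; 16.5% and 11.3% of genes). The counts without knockdown replicate 1 stand against higher shares of called genes as well.

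The balance between the clusters was then compared within each library, which does not depend on library scaling. The log2 ratio of summed beta-like to summed alpha-like FPKM was 0.09, -0.11 and 0.18 in control replicates 1, 2 and 3 and 0.22, 0.53 and 0.19 in the knockdown libraries. It was -2.88, -2.57 and -2.84 in the wild-type rescue and -3.23, -2.83 and -2.39 in the D152V rescue. Beta-like transcript was thus 1.04 and 1.24 times the alpha-like transcript in control and knockdown and 0.147 and 0.142 times in the rescues, as means of log2 ratios. The 2 rescue lines overlapped each other in this ratio and were separate from the control and knockdown libraries. The 4 groups differed (exact permutation test of the F statistic over 15400 arrangements, two-sided, p = 0.00318, adjusted over 3 measures 0.00477; the smallest p possible is 6.49e-05).

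Both rescues had this low ratio at different sums. The beta-like sum of the wild-type rescue was 151 ± 52.6 FPKM, 15% of the control mean, and the alpha-like sum 1040 ± 419, 110% of it. In the D152V rescue the beta-like sum was 374 ± 196 FPKM, 37.1% of the control mean, and the alpha-like sum 2471 ± 626, 261% of it. All 10 genes together amounted to 1191 ± 471 FPKM in the wild-type rescue and 2845 ± 807 in the D152V rescue, against 1954 ± 715 in the control and 4602 ± 3138 in the knockdown.

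**Figure D4:**
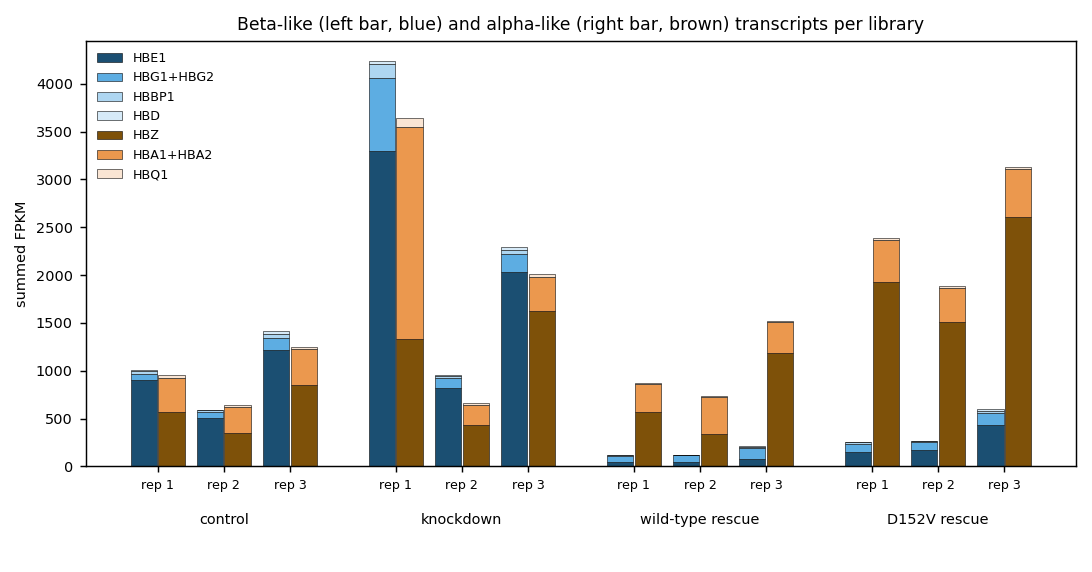
Summed FPKM of beta-like (left bar, blue shades) and alpha-like (right bar, brown shades) globin transcripts in each of the 12 libraries, starting at 0 and divided by gene. The bars of a pair are of like height in the control and knockdown libraries, and the left bar is the shorter in all 6 rescue libraries.

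The share of HBE1 in the beta-like sum was 88.9%, 85.7% and 86.2% in control replicates 1, 2 and 3 and 77.9%, 85.1% and 88.5% in the knockdown libraries. It was 39.9%, 34.8% and 34.3% in the wild-type rescue and 59.4%, 63.2% and 71.4% in the D152V rescue. The wild-type rescue, the D152V rescue and the other 2 groups formed ranges that did not overlap, while control and knockdown overlapped. The 4 groups differed (exact permutation test, two-sided, p = 0.000260, adjusted p = 0.000779). Summed HBG1 and HBG2 made up 86.1 of the 151 FPKM of the beta-like sum in the wild-type rescue and 82.4 of 1007 FPKM in the control. The share of HBZ in the alpha-like sum was 59.3%, 53.6% and 68.3% in the control, 36.5%, 64.3% and 80.9% in the knockdown, 64.9%, 46.2% and 78.2% in the wild-type rescue and 80.5%, 79.7% and 83.1% in the D152V rescue, and the 4 groups were not separated (exact permutation test, two-sided, p = 0.297, adjusted p = 0.297).

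Genes next to the clusters were examined as well. OR51B5, an olfactory receptor gene upstream of HBE1 on the same strand, stood at 173 ± 10.7 FPKM in the control, 137 ± 9.97 in the knockdown, 189 ± 7.35 in the wild-type rescue and 150 ± 3.52 in the D152V rescue. It was higher in the wild-type rescue than in the knockdown by 0.47 (SE 0.10, limma adjusted p = 0.00516; 0.53 without knockdown replicate 1), the comparison in which HBE1 fell by 5.03. OR51B4, its neighbour, had means of 37.4, 30.4, 43.98 and 42.1 FPKM in the same order and was higher in both rescues than in the knockdown (0.52 and 0.46, limma adjusted p = 0.00881 and 0.0240; 0.49 and 0.43 without knockdown replicate 1). Some annotated transcripts of HBE1 and HBG2 begin upstream near OR51B5, so reads of these genes can be shared. BGLT3, a long non-coding RNA between the gamma genes and HBBP1, had means of 7.05, 9.25, 6.36 and 9.87 FPKM and passed in no comparison, though it was higher with D152V than with wild-type MYB (0.59) without knockdown replicate 1 (adjusted p = 0.0394).

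Of the 16 neighbours listed, 10 were tested, and HBM, HBAP1 and HBZP1 of the alpha-like cluster were at 0 in all 12 libraries. Upstream of HBZ, NPRL3, whose introns hold the enhancers of the alpha genes, was lower after knockdown by -0.52 (SE 0.11, limma adjusted p = 0.0160) and higher in the D152V rescue than in the knockdown by 0.49 (SE 0.11, limma adjusted p = 0.00923), with -0.54 and 0.51 when knockdown replicate 1 was left out. POLR3K was lower in both rescues than in the knockdown and FAM234A higher in the wild-type rescue than in the knockdown (limma adjusted p = 0.0233, 0.0196 and 0.0238). These 3 differences were -0.93, -1.07 and 0.57, and -0.49, -0.63 and 0.37 without knockdown replicate 1, where each passed. No listed neighbour passed between the rescue lines or between a rescue line and the control with all 12 libraries. Without knockdown replicate 1, 2 were higher and 1 lower with D152V than with wild-type MYB (13.7% and 18% of all genes). In that fit 1 was higher and 3 lower in the wild-type rescue than in the control (13.9% and 15.9%). In the D152V rescue 0 were higher and 2 lower than in the control (11.3% and 16.5%). Of the globins outside the clusters, NGB was at 0 in all libraries and MB and CYGB were below 1 FPKM.

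**Figure D5:**
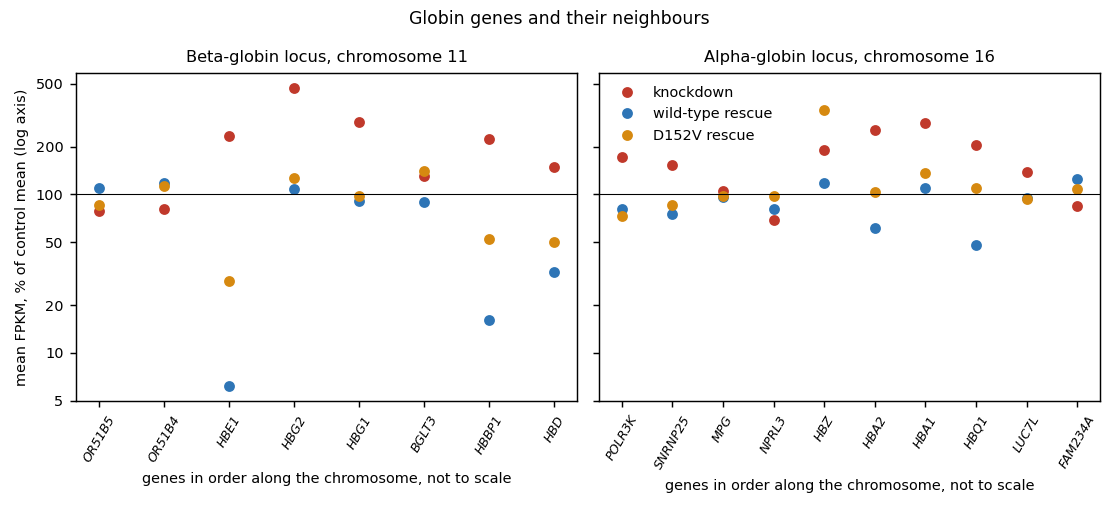
Group means of the globin genes and their tested neighbours except RHBDF1 in percent of the control mean (log axis), in the order in which the genes lie on chromosomes 11 and 16 and not to scale. RHBDF1, not drawn, had means of 2.49, 3.14, 1.53 and 1.42 FPKM in control, knockdown, wild-type rescue and D152V rescue. In the beta-like cluster the wild-type rescue is lowest at HBE1 (6.19%) and HBBP1 (16.1%) while HBG1 and HBG2 between them lie near 100%, and in the alpha-like cluster the D152V rescue is highest at HBZ (343%).

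Of the 32 regulators of globin genes listed, 31 were tested. After MYB knockdown 7 were lower and 1 higher (7.38% and 3.94% of all genes), and 10 and 2 without knockdown replicate 1 (13% and 7.26% of all genes). ZBTB7A, a repressor of the gamma genes, fell from 9.12 ± 1.59 to 4.03 ± 0.350 FPKM (-0.997, limma adjusted p = 0.0165). LMO2 and LDB1, which join GATA1 and TAL1 in one complex, fell by 1.12 and 1.02 (limma adjusted p = 0.00637 and 0.0369, the latter in 11 of 23 settings), NFIA by 0.96 (limma adjusted p = 0.00373), and TAL1 was the gene that rose (0.47, limma adjusted p = 0.0448; 9 of 23 settings). With knockdown replicate 1 left out, these differences were -0.995 for ZBTB7A, -1.20 for LMO2, -0.59 for LDB1, -0.87 for NFIA and 0.62 for TAL1, and each passed. BCL11A, the main repressor of the gamma genes in adult cells, was at 0 in 11 libraries and at 0.0187 FPKM in the remaining one. KLF1, an activator of adult beta globin, had means of 40.9, 50.6, 45.0 and 50.8 FPKM in control, knockdown, wild-type rescue and D152V rescue and passed in no comparison, though without knockdown replicate 1 it was higher in the D152V rescue than in the knockdown (0.40, adjusted p = 0.0306).

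Against the knockdown, the wild-type rescue had 8 of the 31 regulators higher and 2 lower (20.6% and 16.9% of all genes), and the D152V rescue 5 higher and 2 lower (13% and 12% of all genes). Leaving out knockdown replicate 1 gave 10 and 4 (25.5% and 19.9% of all genes), and 9 and 3 (16.8% and 15.9%). GATA1 was lower in the wild-type rescue than in the knockdown, at 91.0 ± 12.7 against 125 ± 8.94 FPKM (-0.46, limma adjusted p = 0.0294; 16 of 23 settings, -0.47 without knockdown replicate 1). Between the rescue lines 2 regulators were higher with D152V and 4 lower (5.96% and 6.19% of all genes), and 5 and 8 in the fit without that library (13.7% and 18% of all genes). SOX6, a partner of BCL11A that also acts on the epsilon gene, stood at 2.12 ± 0.271 FPKM in the control, 1.42 ± 0.768 in the knockdown, 0.722 ± 0.217 in the wild-type rescue and 6.29 ± 1.42 in the D152V rescue. It was higher with D152V than with wild-type MYB by 2.07 (SE 0.22, limma adjusted p = 0.000101; 22 of 22 settings that kept it). LMO2 and NFIA were lower with D152V than with wild-type MYB, by -1.22 and -0.65 (limma adjusted p = 0.000735 and 0.00703), and lower than in the control. Against the control, the wild-type rescue had 1 regulator higher, ZFPM1, and 1 lower, SOX6 (-0.86, limma adjusted p = 0.0316), beside 5.04% and 4.58% of all genes. The D152V rescue had 1 higher, SOX6, and 3 lower, LMO2, NFIA and HDAC1 (4.61% and 4.94% of all genes). Without knockdown replicate 1 these counts were 4 higher and 6 lower (13.9% and 15.9% of all genes), and 3 higher and 11 lower (11.3% and 16.5%).

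Of 16 genes of heme synthesis and globin assembly, all 16 tested, 0 passed after knockdown (3.94% of all genes higher and 7.38% lower). Without knockdown replicate 1, 2 of them passed as higher (7.26% of all genes). ALAS2, the erythroid enzyme of the first step of heme synthesis, stood at 58.1 ± 6.93 FPKM in the control, 85.7 ± 21.1 in the knockdown, 41.1 ± 8.27 in the wild-type rescue and 103 ± 21.4 in the D152V rescue. It was lower in the wild-type rescue than in the knockdown by -1.03 and higher with D152V than with wild-type MYB by 1.31 (limma adjusted p = 0.00441 and 0.00214; 23 of 23 settings each; the first -0.89 without knockdown replicate 1). PPOX, the enzyme of the last but one step, did likewise, by -1.72 and 1.32 (limma adjusted p = 0.00101 and 0.00810; the first -1.31 without knockdown replicate 1). AHSP, the chaperone of free alpha chains, had means of 3.32, 3.45, 2.76 and 0.992 FPKM in control, knockdown, wild-type rescue and D152V rescue and passed in no comparison, though without knockdown replicate 1 it was lower in the D152V rescue than in the control and in the wild-type rescue (-1.09 and -0.92, adjusted p = 0.00597 and 0.0129). In all, 3 of the 16 were lower in the wild-type rescue and 1 in the D152V rescue than in the knockdown (16.9% and 12% of all genes). Between the rescue lines 3 were higher and 1 lower with D152V (5.96% and 6.19% of all genes). In the fit without knockdown replicate 1 these counts were 5 and 3 (19.9% and 15.9% of all genes), and 4 and 3 (13.7% and 18%).

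Markers of the red cell lineage passed in both directions. GYPE, a relative of the glycophorin genes of the red cell surface, was lower in the wild-type rescue than in the control by -1.68 (limma adjusted p = 0.000715) and higher with D152V than with wild-type MYB by 1.19 (limma adjusted p = 0.00379). CD36, a fatty acid transporter of the cell surface, went the other way, higher in the wild-type rescue than in the control by 1.12 and lower with D152V than with wild-type MYB by -1.73 (limma adjusted p = 0.00219 and 5.92e-05). CD36 was low, with means of 0.918, 0.794, 3.13 and 0.249 FPKM in control, knockdown, wild-type rescue and D152V rescue. Those of GYPE were 48.4, 72.5, 14.4 and 34.1 FPKM in the same order. Between the rescue lines 3 of the 19 markers were higher with D152V and 2 lower (5.96% and 6.19% of all genes). In the wild-type rescue against the knockdown 5 were higher and 6 lower (20.6% and 16.9% of all genes). Without knockdown replicate 1 these counts were 7 and 2 (13.7% and 18% of all genes), and 5 and 7 (25.5% and 19.9%). Of the 19 markers 4 were lower and 2 higher in the wild-type rescue against the control (4.58% and 5.04% of all genes). The higher ones were CD36 and SLC4A1, the latter at 0.462 FPKM in the control and 2.04 in the wild-type rescue. Without knockdown replicate 1 the counts were 8 and 4 (15.9% and 13.9% of all genes). After knockdown 3 were lower, HEMGN, SPTB and TRIM58, and 1 higher, KEL (7.38% and 3.94% of all genes). The counts were the same without knockdown replicate 1 (13% and 7.26% of all genes). The summed FPKM of the 19 ran from 904.5 to 1085 in the wild-type rescue, 1068 to 1478 in the control, 1117 to 1631 in the knockdown and 1088 to 1360 in the D152V rescue, and its part in the globin differences was not tested.

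Markers of other lineages also differed. The 10 megakaryocyte markers, of which 7 were below 1 FPKM in every library, summed to 9.82 to 28.0 FPKM in the wild-type rescue against 1.996 to 3.54 in the control, 3.53 to 65.6 in the knockdown and 1.66 to 2.30 in the D152V rescue. Of the 3 tested, 0 passed in any comparison. Without knockdown replicate 1, 2 were lower with D152V than with wild-type MYB (18% of all genes). GP1BB was most of the sum in the wild-type rescue (13.9 FPKM on average), and its mean was 0.575 in the control and 0.140 in the D152V rescue. In the knockdown it stood at 21.3 ± 36.9 FPKM, with libraries from 0 to 63.99. The 11 myeloid markers (8 below 1 FPKM in every library, most of the sum CD33 and LYZ together) ran from 22.5 to 26.0 in the wild-type rescue, 15.3 to 15.9 in the D152V rescue, 37.3 to 47.5 in the control and 31.9 to 52.6 in the knockdown. The 8 lymphoid markers (6 below 1 FPKM throughout, most of the sum CD3D) ran from 19.9 to 26.1 in the control, 18.1 to 77.0 in the knockdown, 34.8 to 60.9 in the wild-type rescue and 79.6 to 112.5 in the D152V rescue. The 6 fibroblast and epithelial markers (3 below 1 FPKM throughout, most of the sum EPCAM) ran from 60.4 to 61.6, 46.3 to 129.7, 53.8 to 76.3 and 33.2 to 39.1 in control, knockdown, wild-type rescue and D152V rescue. The part of these lists in the globin differences was not tested.

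Globin levels also varied together across replicates. For 8 of the 9 tested genes replicate 3 was above replicate 2 in 4 of 4 groups, and for HBA1 in 3 of 4. Other genes with a mean of at least 5 FPKM were ranked by likeness to all 10 globins together, in log2(FPKM + 1) across the 12 libraries. Small RNAs, MTRNR2L copies, ribosomal protein pseudogenes and genes with only a clone name were left out. The most alike were CA11 (r = 0.958), TPD52L1 (0.958), SERPINB6 (0.936), CCNB2 (0.935), IDI1 (0.931) and OCIAD1 (0.929). These are descriptions over 12 libraries that share their groups, and knockdown replicate 1 is the highest library for the globin sum.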

How the data were processed

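The deposited file is 1 table in which the authors give FPKM values for 60658 rows in each library. Libraries were made from poly(A) RNA with a stranded TruSeq kit, per the labels' protocols, and read as 125-bp pairs, per the design text. The submitters' processing notes name GRCh38 and, in no stated order, TopHat2 2.0.13, Cufflinks 2.2.1, Trimmomatic 0.33 and bcl2fastq 2.17.1.14. Annotation and strand setting: not given in the sources used here. Depth per library is unknown. Only 4.8% (median) of the ratios of low values between 2 libraries came within 2% of their median, so whole reads were not recoverable and no count test was run. An FPKM value also depends on transcript length and on the most abundant transcripts of its library.

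Sample titles gave the groups and the replicate numbers. Symbols were matched for 56950 rows. Coordinates are from RefSeq on GRCh38.p14, and transcript lengths (97.8% of tested genes) from GENCODE canonical transcripts. A promoter sequence was found for 1 of the 10 genes, HBD. The 13393 genes that reached FPKM 1 in 3 or more libraries were analysed as log2(FPKM + 1), which understates changes of low genes. One limma 3.58.1 model (R 4.3.3) held all 12 libraries, a mean for every group and a trended variance prior, and left 8 residual degrees of freedom, so any library can move every call. The 6 contrasts had Benjamini-Hochberg adjustment over all tested genes. Near-identical copies were also summed and fitted with the whole table. Ratios within libraries were compared by exact permutation tests (Python 3.11.15). The limma step was tried on simulated data with independent noise in each library. Those data held no outlying library and no shift shared by replicate number, so the trial does not cover these features.

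The members, gene lists, tests and alternatives were chosen with earlier results of these data known. Named genes are the 10 members, MYB, up to 4 called genes per list and comparison, detected neighbours and other globins, BCL11A, ZBTB7A, KLF1, GATA1 and AHSP, and the 6 most like the globin sum among genes with a mean FPKM of at least 5. Small RNAs, MTRNR2L copies, ribosomal protein pseudogenes and clone names were left out of those 6. The 23 alternatives varied the pseudocount (0.1), the filter (none, or mean FPKM 5), the scaling (quantile, median-ratio), library weights, robust moderation, the replicate block, the length trend (alone and with the block) and the libraries in the fit (only the 6 compared, or each library left out). Replicate numbers were taken to pair the 2 rescue groups, because their same-numbered libraries deviated together from their group means (r = 0.153 to 0.233, other pairs at most 0.0621). This pairing is inferred from the data, and the block was fitted over all 4 groups. The criterion was r over 0.1 for every same-numbered pair of libraries, and no other pair of groups met it. Control and knockdown had r = 0.0376 to 0.132 for same-numbered libraries and at most 0.0311 for other pairs.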

Additional observations from a re-analysis of the deposited data

Results flagged for a closer look

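The effect of the rescue on HBE1 differed between the 2 forms of MYB. Against the knockdown, HBE1 was lower by -5.03 with wild-type MYB and by -2.98 with D152V, and the difference between these effects, D152V minus wild-type, was 2.05 on the log2(FPKM + 1) scale (SE 0.53, limma adjusted p = 0.0263). Since both effects are taken against the same knockdown libraries, this difference equals that between the 2 rescue lines, and the expressed protein and the stable line cannot be told apart in it. All 3 D152V libraries lay above all 3 wild-type libraries. It passed in 18 of 23 alternative settings.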

How the results depend on the processing

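HBE1 passed in 23 of 23 alternatives for the wild-type rescue against the control and for each rescue against the knockdown, and the ratio measures kept their side of the threshold in each of the 14 alternatives run for them. Counts of called globin genes were less stable, and their causes were not tested unless the setting itself leaves out samples. After knockdown (0 of 9) quantile normalization and library weights each gave 1, and leaving out 1 library gave 0 to 4. For the wild-type rescue against the knockdown (6) the fit of only the 6 libraries compared gave 3, and leaving out 1 library 3 to 7. For the D152V rescue against the knockdown (1) quantile normalization and library weights gave 4, the replicate block 5, the block with the length trend removed 4, and leaving out 1 library 1 to 6. Between the rescue lines (1) no filter gave 0, quantile normalization 2, library weights 4, the replicate block 3, the length trend removed 2, both together 4, only the 6 libraries compared 5, and leaving out 1 library 0 to 4. For the wild-type rescue against the control (2) no filter gave 1, library weights 4, only the 6 libraries 5, and leaving out 1 library 1 to 3. For the D152V rescue against the control (1) no filter and the mean filter gave 0, quantile normalization 2, library weights 3, the replicate block 2, the length trend removed 2, both together 3, only the 6 libraries 3, and leaving out 1 library 0 to 2. Of the 12 tests of the 2 sums (0 passed), 1 passed with quantile normalization, median-ratio scaling or library weights, and 0 to 3 when 1 library was left out. With the replicate block the adjusted exact permutation p of the 3 ratio measures was 0.0234, 0.0156 and 0.222. The block treats libraries with the same number as matched in all groups, and only the 2 rescue lines met the criterion for that. Over all genes tested, called genes after knockdown ranged from 18 to 3581 (1516 as reported), and in the other 5 comparisons from 554 to 6161.

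Small differences changed sign under some alternatives, none of which passed the test as reported. With the changed sign 4 passed, HBA1 in the D152V rescue against the knockdown with library weights (limma adjusted p = 0.0172) and, without knockdown replicate 1, HBA1 in both rescues and summed HBA1 and HBA2 in the D152V rescue against the knockdown. The causes were not tested. Against the control, HBG1 in the wild-type rescue was at 0.0186 with the length trend removed, with or without the replicate block, and in the D152V rescue at -0.0461 with library weights, and HBA2 in the D152V rescue at -0.0922 with library weights. HBA1 after knockdown was at -0.45 with library weights. Against the knockdown, HBA1 was at 0.0392 with quantile normalization and 0.54 with library weights in the wild-type rescue, and at 0.38 and 0.79 in the D152V rescue, there also at 0.16 with the length trend removed, with or without the block. Summed HBA1 and HBA2 were at -0.24 after knockdown and at 0.19 in the wild-type rescue against the knockdown with library weights, and at 0.23 (quantile normalization) and 0.49 (library weights) in the D152V rescue against the knockdown. In the wild-type rescue against the control this sum was at 0.0781 with quantile normalization and 0.10 with the length trend removed, with or without the block.

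Leaving out 1 library in turn changed the sign of further differences, given here as the lowest and highest value. Between the rescue lines HBG1 ran from -0.0968 to 0.34, HBG2 from -0.00802 to 0.51, their sum from -0.026 to 0.48 and HBD from -0.0754 to 0.77. In the wild-type rescue against the control HBG1 ran from -0.34 to 0.22, HBG2 from -0.15 to 0.39, their sum from -0.20 to 0.35, HBZ from -0.33 to 0.58, HBA1 from -0.0289 to 0.20 and the sum of HBA1 and HBA2 from -0.15 to 0.0675. In the D152V rescue against the control HBG1 ran from -0.19 to 0.32, HBA2 from -0.17 to 0.22 and HBQ1 from -0.00674 to 0.29. After knockdown HBA1 ran from -0.49 to 1.31 and the sum of HBA1 and HBA2 from -0.27 to 1.41. In the wild-type rescue against the knockdown HBA1 ran from -1.20 to 0.60 and the sum from -1.42 to 0.25. In the D152V rescue against the knockdown HBA1 ran from -0.88 to 0.93, the sum from -1.04 to 0.63 and HBQ1 from -0.98 to 0.024. In the 7 ranges that involve the knockdown group the change of sign came without knockdown replicate 1.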
